A study of Mus musculus with 8 samples.

Results

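The genes described here encode 28 nuclear receptors and 8 coregulators that work with them, 36 genes in all, taken by symbol from a fixed list. Each was read from 1 probe set, a group of short probes on the array that carried that symbol alone, and the brightest one on average over the 8 arrays stood for a gene that had several. Of the 36 genes, 34 were measured in this way, among 18193 genes in all; Nr1h2 and Ncor1 were not analysed here. The receptors Nr2f1, Hnf4g, Rarb and Vdr lay below 5.80 log2 units, the median level of all probe sets, and were left out of the test as dim. The 30 members tested, 23 receptors and 7 coregulators, were among 11986 genes tested.

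RNA came from whole liver of 5 POMCMfn2KO mice and 3 control mice, labelled as wild type, with 1 array per mouse. As the name of the genotype says, the mitochondrial fusion gene Mfn2 is deleted in these mice in cells that make pro-opiomelanocortin (POMC), which are found in the hypothalamus and the pituitary. The series' title names the hypothalamus. All mice were 6 weeks old, of mixed C57Bl/6J, FVB/N and 129 strain, and had standard chow and water freely available. The labels do not give the driver of the deletion, the sex, the time of collection or any batch.

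Nuclear receptors are transcription factors that carry a DNA-binding domain with zinc fingers and a pocket for a small lipophilic ligand, such as a steroid, a retinoid, an oxysterol or a bile acid, although several orphan members have no settled ligand. Many of them bind DNA as pairs with a retinoid X receptor. A bound receptor recruits coactivators, among them the p160 family (Ncoa1, Ncoa2 and Ncoa3) and Mediator through Med1, or corepressor complexes built on Ncor1, and in liver this machinery sets the expression of genes of drug, bile acid, lipid and glucose metabolism.

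Most receptors and coregulators did not pass the test between POMCMfn2KO and control liver. Of the 23 tested receptors, 1 rose, Rxrb, and 2 fell, Nr3c2 and Nr1i3; of the 7 tested coregulators none passed, with 2 at an unadjusted p under 0.05 in limma. In all, 3 of the 30 tested members (10.0%) passed the limma test at an adjusted p of 0.05, against 18.0% of all genes tested (7.02% rose and 10.9% fell). POMCMfn2KO and control values were fully apart in 5 of 30 members (16.7%: Nr3c2, Nr1i3 and Rxrg below, Rxrb and Ncoa3 above), against 28.5% of all genes tested. The median change, POMCMfn2KO minus control, was -0.03 log2 units for receptors and 0.14 for coregulators, against -0.02 over all genes tested. Changes ran between -0.72 and 0.33 among the receptors and coregulators together. Of the coregulators 6 of 7 lay above 0, against 11 of 23 receptors and 5486 of the 11986 genes tested. The 95% interval of the difference lay within 0.5 log2 units of 0 for 24 of the 30 members, against 8855 of the 11986 genes tested.

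**Figure D1:**
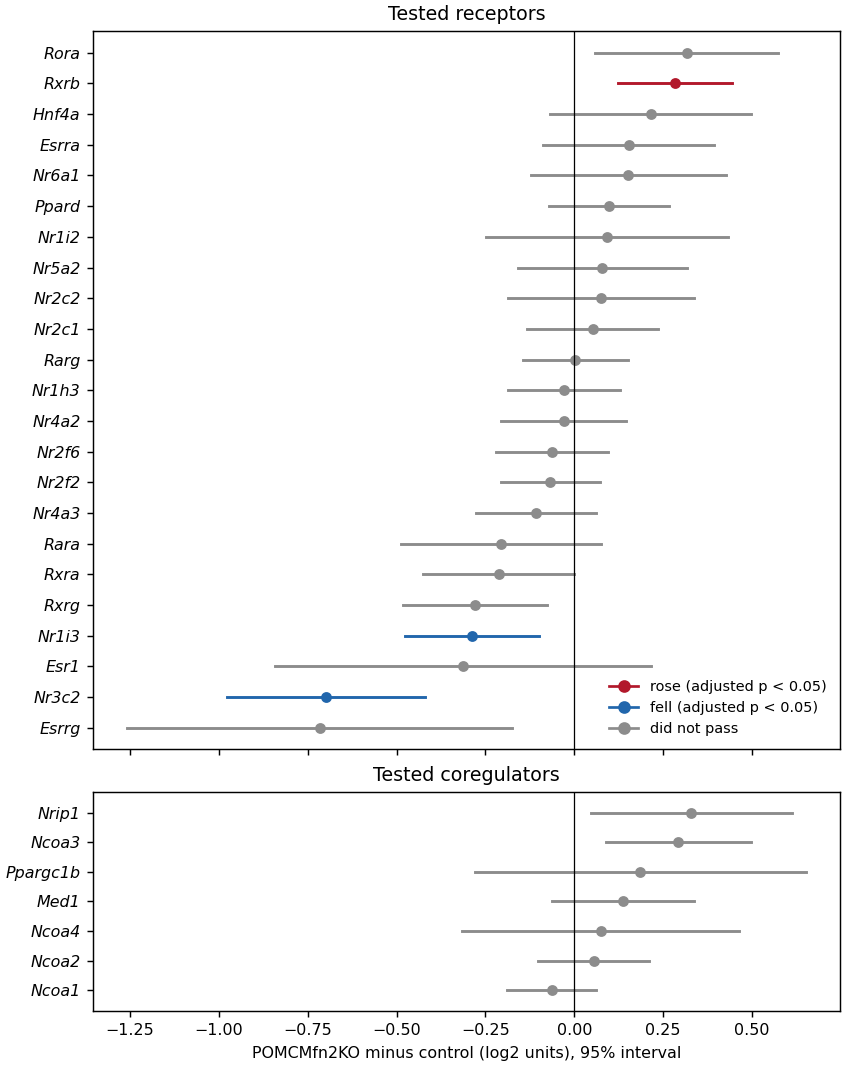
Change of each tested receptor (upper panel) and coregulator (lower panel), POMCMfn2KO minus control, in log2 units on the horizontal axis. Points are differences of means and lines are 95% intervals from limma; Rxrb rose, Nr3c2 and Nr1i3 fell, and the intervals of Nr3c2 (-0.98 to -0.42) and Esrrg (-1.26 to -0.17) reach farthest from 0.

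The count of members moved with the arrays used, as did that of all genes. Without any single control array Nr3c2 alone passed, when 6.85% (without control 1), 6.84% (without control 2) and 7.2% (without control 3) of all genes did, and without POMCMfn2KO 2 and 3 together Nr3c2 alone passed, with 5.34% of all genes. Without POMCMfn2KO 1, when 23% of all genes passed, 6 members did (Rora, Rxrb and Nrip1 up, Nr3c2, Rxrg and Esr1 down), and without POMCMfn2KO 4, when 22.9% of all genes passed, 7 members did (Rxrb, Ncoa3 and Ppargc1b up, Nr3c2, Nr1i3, Rxrg and Esrrg down). Rxrb and Nr3c2 passed without POMCMfn2KO 3 or 5, and Nr1i3 and Nr3c2 without POMCMfn2KO 2. With array weights that let each genotype have its own spread, 8 members passed (Rxrb, Rora, Ncoa3 and Nrip1 up, Nr3c2, Nr1i3, Rxrg and Esrrg down), when 26.8% of all genes did.

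The start regions of the 3 members that passed are shown because these are the members whose level changed; each runs from 250 bases before to 50 bases after a start listed by RefSeq (GRCm38.p6), 5′ to 3′, with the half-sites AGGTCA and GGGTCA of nuclear receptors, the E-box CACGTG and the CCAAT box, on either strand, in capitals. The regions are Nr1i3 at chr1:171213720-171214019, Nr3c2 at chr8:76902080-76902379 and Rxrb, for the first of 2 listed starts, at chr17:34031562-34031861, all on the plus strand.
Nr1i3: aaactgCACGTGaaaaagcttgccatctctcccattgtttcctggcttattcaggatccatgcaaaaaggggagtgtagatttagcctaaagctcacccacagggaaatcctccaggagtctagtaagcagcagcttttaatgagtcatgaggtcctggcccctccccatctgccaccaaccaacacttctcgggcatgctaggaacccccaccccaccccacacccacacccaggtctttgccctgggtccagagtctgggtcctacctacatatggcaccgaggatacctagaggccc
Nr3c2: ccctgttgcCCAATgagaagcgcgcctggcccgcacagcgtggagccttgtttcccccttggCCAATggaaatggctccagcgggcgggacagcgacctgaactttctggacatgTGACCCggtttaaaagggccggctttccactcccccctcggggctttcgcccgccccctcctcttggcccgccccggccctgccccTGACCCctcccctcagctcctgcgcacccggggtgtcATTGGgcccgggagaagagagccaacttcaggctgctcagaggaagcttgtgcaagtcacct
Rxrb: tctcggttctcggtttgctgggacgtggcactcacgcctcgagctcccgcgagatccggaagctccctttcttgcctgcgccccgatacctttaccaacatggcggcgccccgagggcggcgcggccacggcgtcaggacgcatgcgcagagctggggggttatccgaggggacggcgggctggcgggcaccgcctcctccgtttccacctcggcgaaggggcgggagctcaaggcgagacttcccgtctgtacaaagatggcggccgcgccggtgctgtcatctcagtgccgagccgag
The Nr1i3 region holds 1 E-box, which 7.15% of 32851 start regions hold. The Nr3c2 region holds 2 copies of GGGTCA and 3 CCAAT boxes, and the Rxrb region holds none of these letters. At least 1 copy was in 13.7% of all regions for GGGTCA and in 37.4% for the CCAAT box. The shares with 2 or 3 copies were not counted. Over the 52 regions listed for 32 member genes, AGGTCA was in 7, against 16.3% of all regions, GGGTCA in 10, and the D-box TTATGNAA, which clock output factors bind, in 1, of Esrrg (3.38% of all). A match of letters is a description and not a site.

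The arrays were of liver by their markers, and some POMCMfn2KO arrays also carried transcripts of the exocrine pancreas. The linear levels of 15 hepatocyte markers summed to between 295390 and 320822 in POMCMfn2KO arrays and to between 294376 and 298777 in control arrays. The sum over 21 pancreatic acinar markers was 24796 in POMCMfn2KO 2 and 27482 in POMCMfn2KO 3, and between 1752 and 2541 in the other POMCMfn2KO arrays, against 1769 to 1824 in control arrays; none of the 17 tested acinar markers passed (1 at an unadjusted p under 0.05 in limma), Cpb1 (3.01) and Cela2a (2.54) differed most, and Pnliprp1, Prss3, Gp2 and Ptf1a were dim. Of 15 tested endothelial markers 4 rose and none fell, 26.7% called against 18.0% of all genes tested, of which 7.02% rose. Gpr182 (0.65) and Stab2 (0.55) changed most, and Pecam1 was dim. The sum of the 16 measured lay between 7535 and 9662 in POMCMfn2KO arrays and between 6427 and 7869 in control arrays. No endothelial marker rose without control 2 or 3 or without POMCMfn2KO 2 and 3, and 2 rose without POMCMfn2KO 2, 3 or 5. In whole liver, fewer cells of a type and less RNA per cell cannot be told apart. Mfn2 averaged 9.61 ± 0.24 in POMCMfn2KO and 9.88 ± 0.08 in control arrays (SD), did not pass (limma adjusted p = 0.169), and in liver does not check a deletion in POMC cells.

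**Figure D2:**
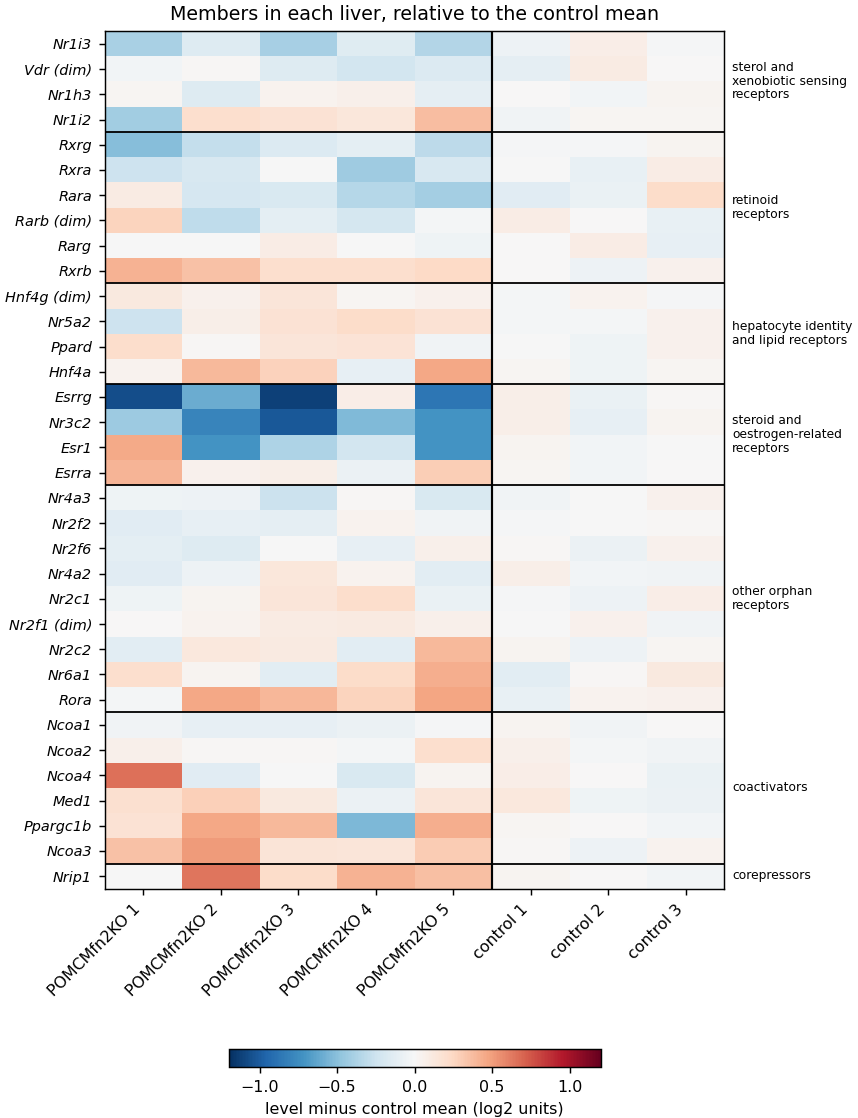
Level of each of the 34 measured members in each array minus its control mean (colour, log2 units, red higher and blue lower), with POMCMfn2KO arrays on the left and control arrays on the right, by role. Rows named dim were not tested; POMCMfn2KO 1 and 4 go against the other POMCMfn2KO arrays in several rows, such as Esr1 and Esrrg.

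Of the steroid receptors, Nr3c2 fell. It encodes the mineralocorticoid receptor, which binds aldosterone and corticosterone. Nr3c2 had 6.57, 6.22, 5.99, 6.48 and 6.29 log2 units in POMCMfn2KO 1 to 5, against 7.08, 6.91 and 7.04 in control 1 to 3. All 5 POMCMfn2KO livers lay below all 3 controls, by a difference of -0.70 ± 0.12 (SE), which is 1.62-fold (limma adjusted p = 0.00692). Nr3c2 passed in every setting in which it was tested, with adjusted p up to 0.0412 and changes between -0.76 and -0.56; the stricter filter left it out as too dim. It had 1 probe set, so no second reading was available. Esr1, the receptor for oestradiol, had 10.52, 9.35, 9.70, 9.85 and 9.35 in POMCMfn2KO 1 to 5, against 10.10, 10.04 and 10.06 in control 1 to 3, and did not pass (-0.31, 95% interval -0.84 to 0.22; -0.37 on another probe set). POMCMfn2KO 1 was above every control and the other 4 below every control. Without POMCMfn2KO 1 the change was -0.50 (limma adjusted p = 0.0229), and without POMCMfn2KO 2 and 3 it was -0.16 (0.746).

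The oestrogen-related receptors are orphan receptors that work with PGC1 coactivators on genes of mitochondrial metabolism. Esrrg had 5.21, 5.68, 5.15, 6.35 and 5.40 log2 units in POMCMfn2KO 1 to 5, against 6.34, 6.19 and 6.29 in control 1 to 3. POMCMfn2KO 4 was at the control level and the other 4 were below the median level of all probe sets, so background limits the size of the difference. The change of -0.72 ± 0.24 (SE) did not pass (limma adjusted p = 0.0689), and without POMCMfn2KO 4 it was -0.92 (adjusted p = 0.00185). Other omissions went the other way, with -0.62 (limma adjusted p = 0.217) without POMCMfn2KO 2 and 3. Dimmer probe sets of Esrrg gave 0.09 and -0.45. Esrra, itself counted among the targets given next, did not pass (0.15, 95% interval -0.09 to 0.39), with 0.03 on another probe set. Targets of oestrogen-related receptors and PGC1 showed 3 of 30 tested genes that rose and none that fell (8 at an unadjusted p under 0.05 in limma, either direction), 10.0% called against 18.0% of all genes tested: Hamp2, a hepcidin gene (0.66), Idh3a, a subunit of the citrate cycle enzyme isocitrate dehydrogenase (0.43), and the growth factor gene Vegfa (0.34). None of the 3 passed without any single control or without POMCMfn2KO 2 and 3. Other probe sets of Idh3a gave between -0.06 and 0.09, and a dim probe set of Hamp2 gave -0.05. Hamp, the other hepcidin gene of the list, gave -0.02 and 0.01 on its probe sets. Acadm, a fatty acid oxidation enzyme, gave -0.08.

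**Figure D3:**
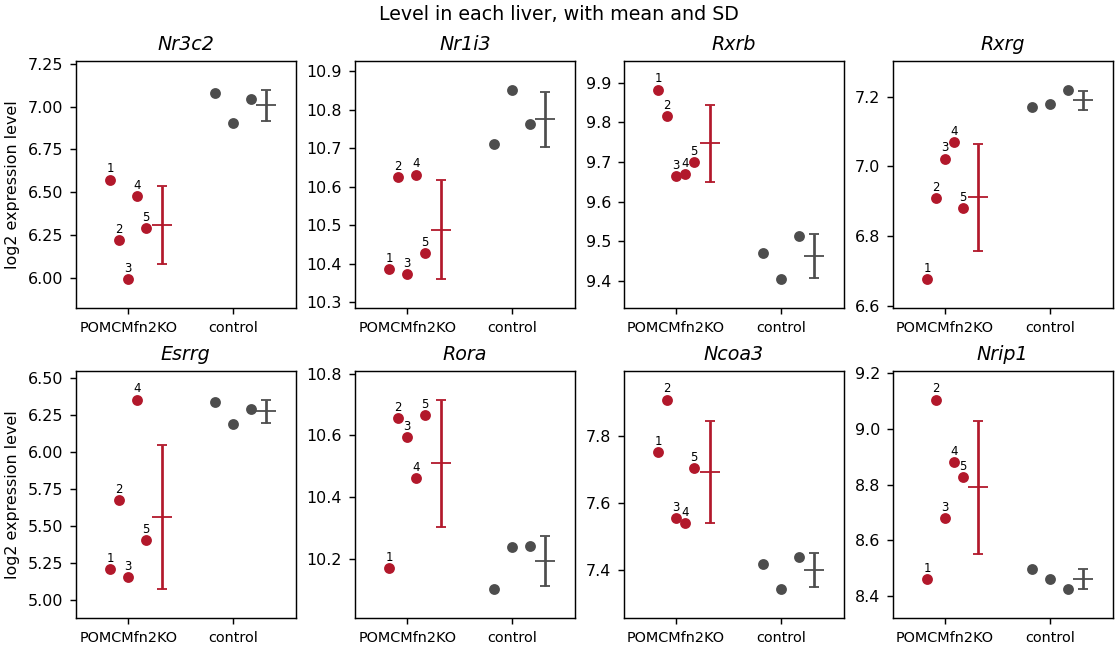
Log2 expression level (vertical axes, which do not start at 0) of 8 members in each liver, POMCMfn2KO in red with array numbers and control in grey, with mean and SD beside the points. Nr3c2, Nr1i3 and Rxrg show every POMCMfn2KO liver below every control and Rxrb and Ncoa3 every one above, whereas POMCMfn2KO 4 is at the control level for Esrrg and POMCMfn2KO 1 for Rora and Nrip1.

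Among receptors that sense drugs and sterols, Nr1i3 fell. It encodes CAR, the constitutive androstane receptor, which with PXR, the product of Nr1i2, turns on genes of drug metabolism and transport. Nr1i3 had 10.39, 10.63, 10.37, 10.63 and 10.43 log2 units in POMCMfn2KO 1 to 5, against 10.71, 10.85 and 10.76 in control 1 to 3. All POMCMfn2KO livers lay below all controls, by -0.29 ± 0.08 (SE), 1.22-fold (limma adjusted p = 0.0433). Its call was lost without control 1, 2 or 3 (adjusted p 0.096, 0.169 and 0.12), without POMCMfn2KO 1, 3 or 5 (0.0541, 0.0929 and 0.0727), without POMCMfn2KO 2 and 3 (0.111), without the filter (0.0522) and after quantile normalization (0.0841). Nr1i2 had 8.57, 9.19, 9.16, 9.12 and 9.35 in POMCMfn2KO 1 to 5, against 8.98 ± 0.04 (SD) over control 1 to 3. POMCMfn2KO 1 was the lowest liver and the other 4 were above every control, and the change did not pass (0.09, 95% interval -0.25 to 0.43). Nr1h3, the oxysterol receptor LXRa, differed by -0.03 (95% interval -0.19 to 0.13). Vdr, the vitamin D receptor, was dim, at 5.54 ± 0.10 in POMCMfn2KO and 5.65 ± 0.10 in control arrays (SD), and Cyp24a1, its best known target, gave -0.03.

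Targets of CAR and PXR fell more often than they rose. Of 22 tested, 7 fell and 1 rose, a share of 36.4% called against 18.0% of all genes tested, with a median change of -0.46. The target lists share genes, and no list was tested as a set. Abcc3, an export pump of conjugates, had 9.63, 9.92, 9.71, 10.08 and 9.57 log2 units in POMCMfn2KO 1 to 5, against 10.89, 10.86 and 10.96 in control 1 to 3, with no overlap (-1.12, limma adjusted p = 0.000598). Gstm2, a glutathione transferase (-1.69), and Aldh1a7, an aldehyde dehydrogenase (-1.30), fell, and the carboxylesterase gene Ces2a rose (0.66). Cyp2b9, a cytochrome P450, was left out as dim by its mean, with 4.14, 4.50, 4.19, 4.22 and 4.35 in POMCMfn2KO 1 to 5, against 7.52, 7.70 and 8.10 in control 1 to 3. Without the filter Cyp2b9 passed (-3.49, limma adjusted p = 9.62e-07), a size that background limits, since every POMCMfn2KO value lay below the median of all probe sets. Its relative Cyp2b10, shown because it is the usual readout of CAR, went the other way in some livers, with 11.48, 8.87, 7.28, 7.09 and 8.06 in POMCMfn2KO 1 to 5 against 7.44, 7.40 and 7.56 in control 1 to 3, and did not pass (1.08, adjusted p = 0.416). The number of CAR and PXR targets that fell was 4 without any single control and 3 without POMCMfn2KO 2 and 3; probe sets of cytochrome P450 and glutathione transferase genes can bind close relatives.

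Of 17 tested LXR targets, 6 fell and none rose (8 at an unadjusted p under 0.05 in limma, either direction), 35.3% called against 18.0% of all genes tested. Nr1h3, with its near-zero difference, was itself counted among the 17. The 4 with the lowest p were the lipogenic factor Srebf1 (-1.52), the phospholipid transfer protein Pltp (-1.42; -0.86 on another probe set), the acyltransferase Lpcat3 (-0.39) and the cholesterol exporter Abca1 (-0.32; -0.11 on another probe set). Abca1 lost its call when control 1 or both POMCMfn2KO 2 and 3 were left out, or when its probe sets were averaged (adjusted p up to 0.190), 3 targets fell without control 1 and without POMCMfn2KO 2 and 3, and 1 rose without POMCMfn2KO 1 or 4.

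Of the 5 tested retinoid receptors, 1 rose. Rxrb, a retinoid X receptor and so a partner of many receptors, had 9.88, 9.82, 9.67, 9.67 and 9.70 log2 units in POMCMfn2KO 1 to 5, against 9.47, 9.40 and 9.51 in control 1 to 3. Every POMCMfn2KO liver lay above every control, by 0.28 ± 0.07 (SE), 1.22-fold (limma adjusted p = 0.026). Its call was lost without control 1, 2 or 3 (adjusted p 0.0909, 0.116 and 0.0673), without POMCMfn2KO 2 (0.0582) and without POMCMfn2KO 2 and 3 (0.0987), where the change was 0.29. Rxrg, its relative best known from muscle and brain, had 6.68, 6.91, 7.02, 7.07 and 6.88 in POMCMfn2KO 1 to 5, against 7.17, 7.18 and 7.22 in control 1 to 3. Here every POMCMfn2KO liver lay below every control, but the change of -0.28 ± 0.09 (SE) did not pass (limma adjusted p = 0.0598). It passed without POMCMfn2KO 1 (-0.22, adjusted p = 0.0447) or 4 (-0.32, 0.03), whereas without control 3 the adjusted p was 0.174 (-0.26). Rxra, a main retinoid X receptor of liver, did not pass (-0.21, 95% interval -0.42 to -0.00, limma adjusted p = 0.151), and its second bright probe set gave 0.00. Of the retinoic acid receptors, Rara (-0.21) and Rarg (0.00) did not pass and Rarb was dim (5.53 ± 0.22 in POMCMfn2KO and 5.60 ± 0.09 in control arrays, SD).

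Of 24 tested retinoic acid targets and genes of retinoid handling, 10 fell and 4 rose, 58.3% called against 18.0% of all genes tested. Cyp26a1, the enzyme that clears retinoic acid and a target of its receptors, had 5.68, 5.86, 5.65, 5.59 and 5.60 log2 units in POMCMfn2KO 1 to 5, against 6.21, 6.28 and 6.45 in control 1 to 3 (-0.63, limma adjusted p = 0.00192). It was near the median level of all probe sets in every POMCMfn2KO liver, so background limits its size. Bco1, which cleaves beta-carotene (0.95), and Fgf21, a hepatic hormone (1.29), rose, and Rdh10, a retinol dehydrogenase, fell (-0.45; -0.30 on another probe set). With control 1 or 3 left out 2 fell, with control 2 left out 3 fell, and with POMCMfn2KO 2 and 3 left out 1 fell; 2 rose with any control left out, and Rdh10 lost its call without control 3 and without POMCMfn2KO 2 and 3 (adjusted p up to 0.0666).

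The receptors that maintain hepatocyte identity did not pass. Hnf4a, a master regulator of hepatocyte genes, had 12.73, 13.08, 12.96, 12.59 and 13.16 log2 units in POMCMfn2KO 1 to 5, against 12.71, 12.64 and 12.71 in control 1 to 3. One POMCMfn2KO liver lay below the controls and 4 above (0.22, 95% interval -0.07 to 0.50, limma adjusted p = 0.268), on a probe set of a type that can bind several transcripts, and 3 other probe sets gave 0.00, 0.12 and 0.37. Of 30 tested HNF4A targets, 3 rose and 2 fell: Apom, an apolipoprotein (1.00), the bile acid enzyme Cyp27a1 (0.66) and G6pc, glucose-6-phosphatase (0.60), rose, and Pklr, the liver pyruvate kinase, fell (-0.83; -0.42 and -0.43 on other probe sets), as did Nr1i3. Their share of 16.7% was near that of all genes, Apoa1, the main protein of high-density lipoprotein, differed by 0.12, and 1 target fell when any control, POMCMfn2KO 3, POMCMfn2KO 5 or both POMCMfn2KO 2 and 3 were left out; G6pc lost its call without any control (adjusted p up to 0.0598).

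Nr5a2, the gene of LRH-1, which acts on bile acid and cholesterol genes and is also abundant in pancreatic acinar cells, differed by 0.08 (95% interval -0.16 to 0.32), with 9.78 and 9.88 in POMCMfn2KO 2 and 3, the arrays with acinar transcripts, and 9.46, 9.94 and 9.89 in POMCMfn2KO 1, 4 and 5, against 9.69, 9.68 and 9.77 in control 1 to 3. Of 13 tested LRH-1 targets, 1 rose (Apom) and 1 fell (Lpcat3), a share below the 18.0% called of all genes tested. Cyp8b1, the sterol hydroxylase that LRH-1 drives, differed by -0.16. The largest change of the list was that of Cel (1.76), also counted among the acinar markers, which did not pass. Cel had 10.14 and 10.37 log2 units in POMCMfn2KO 2 and 3, against 6.12 to 6.18 in the other POMCMfn2KO arrays. Its control values were 6.04 to 6.06. Without POMCMfn2KO 1, 2 LRH-1 targets rose and 2 fell, and without POMCMfn2KO 4, 2 fell. Ppard, a fatty acid sensor, differed by 0.10 (95% interval -0.07 to 0.27), and Hnf4g was dim.

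Among the other orphan receptors, Rora had the lowest p. It encodes a receptor that drives clock and lipid genes from sites it shares with the REV-ERB repressors. Rora had 10.17, 10.66, 10.59, 10.46 and 10.66 log2 units in POMCMfn2KO 1 to 5, against 10.10, 10.24 and 10.24 in control 1 to 3. POMCMfn2KO 1 lay within the controls and the other 4 above them. The change of 0.32 ± 0.11 (SE) did not pass (limma adjusted p = 0.0857). Without POMCMfn2KO 1 it was 0.40 (adjusted p = 0.00756), and without POMCMfn2KO 2 and 3 it was 0.24 (0.310). On 6 other bright probe sets Rora gave between -0.00 and 0.46. With its probe sets averaged the change was 0.11 (adjusted p = 0.205), below the size of Nr2c1 (0.12) and Nr2f6 (-0.19) read in that way. Of 14 tested RORa targets, 7 rose and 1 fell, 57.1% called against 18.0% of all genes tested: the vasopressin receptor gene Avpr1a (1.03), Fgf21, the clock repressor Cry1 (1.61) and the clock activator Arntl (0.68; 0.13 on another probe set) had the lowest p. Between 5 and 9 targets rose when single arrays were left out, and 6 without POMCMfn2KO 2 and 3; none fell without control 2 or 3, without POMCMfn2KO 2 or 3, or without both.

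The remaining 7 tested orphan receptors differed by between -0.11 and 0.15, with group values that overlapped in each. The COUP-TF receptors Nr2f2 (-0.07), prominent in vascular cells, and Nr2f6 (-0.06; -0.31 on another probe set) did not pass, nor did the testicular receptors Nr2c1 (0.05) and Nr2c2 (0.08), the germ cell factor Nr6a1 (0.15), and the immediate early receptors Nr4a2 (-0.03) and Nr4a3 (-0.11). Their relative Nr4a1, which is no member, fell (-0.66, limma adjusted p = 0.000944). Nr2f1 was dim. Some probe sets that were not used, most of them dim, gave a change of the other sign: -0.14 on a pair for Nr2c1, -0.04 and -0.06 for Nr2c2, 0.16 and 0.13 for Nr2f2, between 0.04 and 0.20 on 4 for Nr4a2, -0.06 for Nr6a1, -0.20 and -0.42 for Rora, -0.29 for Nr5a2 and 0.01 for Esr1.

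Of the coactivators, Ncoa3 was nearest to the threshold. It encodes SRC-3 of the p160 family. Ncoa3 had 7.75, 7.91, 7.55, 7.54 and 7.71 log2 units in POMCMfn2KO 1 to 5, against 7.42, 7.34 and 7.44 in control 1 to 3. Every POMCMfn2KO liver lay above every control, but the change of 0.29 ± 0.09 (SE) did not pass (limma adjusted p = 0.0531), and another probe set gave -0.09. It passed without POMCMfn2KO 4 (0.33, adjusted p = 0.0291), with a stricter filter (0.0466) and with array weights by genotype (0.0191), and gave 0.10 with the mean of its probe sets (0.316). The other p160 genes Ncoa1 (-0.06, 95% interval -0.19 to 0.06) and Ncoa2 (0.05, -0.10 to 0.21) did not pass, nor did Med1, the Mediator subunit that contacts receptors (0.14, -0.06 to 0.34); unused probe sets gave 0.05 for Ncoa1 and between -0.03 and 0.29 on 6 for Med1. Ncoa4, also the cargo receptor of ferritin breakdown, had 12.27 in POMCMfn2KO 1, against 11.42 to 11.64 in the other POMCMfn2KO livers and 11.53 to 11.69 in controls (0.07, limma adjusted p = 0.806). Ppargc1b, the gene of PGC1-beta, had 8.31 in POMCMfn2KO 4 and between 9.02 and 9.31 in the other POMCMfn2KO livers, against 8.81 to 8.87 in controls. Its change was 0.19 with all arrays (limma adjusted p = 0.580). Without POMCMfn2KO 4 it was 0.37 (adjusted p = 0.0143), and without POMCMfn2KO 2 and 3 it was 0.03 (0.957).

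Nrip1, which encodes the corepressor RIP140, had 8.46, 9.10, 8.68, 8.88 and 8.83 log2 units in POMCMfn2KO 1 to 5, against 8.50, 8.46 and 8.42 in control 1 to 3. POMCMfn2KO 1 was at the control level and the other 4 were above every control. The change of 0.33 ± 0.13 (SE) did not pass (limma adjusted p = 0.101). Without POMCMfn2KO 1 it was 0.41 (adjusted p = 0.0183), and without control 3 it was 0.31 (0.246). The other bright probe sets gave 0.25, 0.33, -0.07 and 0.02, and the mean of its probe sets gave 0.18 (adjusted p = 0.208).

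Of 27 tested coregulators outside the set, 4 rose and 2 fell, and their share of 22.2% called was near the 18.0% of all genes tested. The receptor coactivator gene Ncoa5 had 7.24, 7.21, 7.24, 7.24 and 7.24 log2 units in POMCMfn2KO 1 to 5, against 6.76, 6.73 and 6.73 in control 1 to 3, with no overlap (0.49, limma adjusted p = 0.000723). Hdac3, the histone deacetylase of the Ncor1 corepressor complex, fell (-0.48, adjusted p = 0.00307), with 8.75, 8.72, 8.72, 8.96 and 8.75 in POMCMfn2KO 1 to 5, against 9.26, 9.26 and 9.25 in control 1 to 3. The chromatin remodelling ATPase gene Smarca4 fell (-0.79) and the acetyltransferase gene Crebbp rose (0.49), but another probe set of Smarca4 gave 0.02, and 2 of Crebbp gave 0.06 and 0.02, and averaging them ended its call (adjusted p = 0.185). The count that rose was 2 without control 2. Of 31 tested Mediator subunits, 2 rose and 3 fell, 16.1% called against 18.0% of all genes tested (lowest p: Med28 -0.33, Med30 -0.32, Cdk19 -0.36 and Med29 0.35). Averaging probe sets ended the calls of Med28, with 0.02 on its dim probe set, and of Med29, with -0.23 and 0.10 on its dim probe sets (adjusted p up to 0.0721 and 0.524 over all alternatives). None rose without any control or without POMCMfn2KO 2 or 5, 1 rose without POMCMfn2KO 3 and without POMCMfn2KO 2 and 3, 4 rose without POMCMfn2KO 4, none fell without control 1 or without POMCMfn2KO 2 and 3, and 1 fell without control 2 or 3.

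Of 11 tested nuclear receptors outside the set, 3 fell and none rose (4 at an unadjusted p under 0.05 in limma, either direction), 27.3% called against 18.0% of all genes tested: Nr4a1, the lipid receptor Pparg (-1.05) and Nr1d1, the gene of REV-ERBa (-0.43). Nr1d1 averaged 5.82 in POMCMfn2KO arrays, near the median level of all probe sets, so background limits its size. It lost its call without control 2 or 3, without POMCMfn2KO 2 or 3, without both and with the replicate block (limma adjusted p up to 0.122). Of 9 tested oestrogen and vitamin D targets, 3 rose and 1 fell (44.4% called): the cytokine receptor gene Lifr (1.46; 0.54 and 0.34 on other probe sets), the oxysterol hydroxylase Cyp7b1 (0.78) and the cytokine signalling inhibitor Socs2 (1.66; 1.64 and 0.20) rose and the angiotensinogen gene Agt fell (-0.33). Only 1 of them, Lifr, rose when any control, POMCMfn2KO 2 or both POMCMfn2KO 2 and 3 were left out, where Cyp7b1 and Socs2 lost their calls (adjusted p up to 0.107 and 0.138). Socs2 lost its call in 12 of 17 alternatives, also without POMCMfn2KO 3, 4 or 5, without the filter, with probe sets averaged, with a trended and robust variance and with the replicate block.

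**Figure D4:**
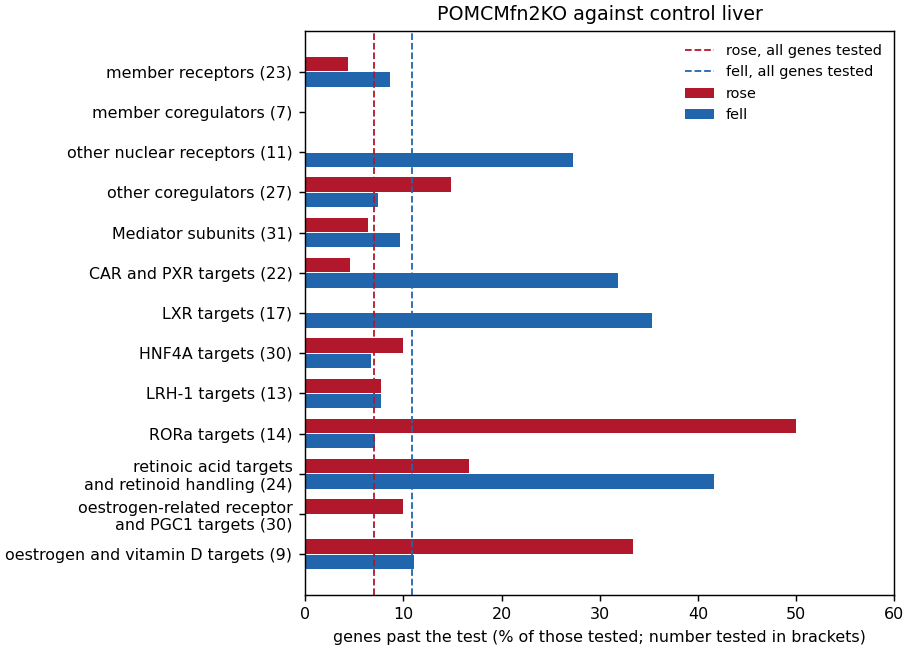
Share of tested genes that rose (red) and fell (blue) in POMCMfn2KO liver for the member receptors and coregulators and for the other lists, with the number tested in brackets; dashed lines are the shares over all genes tested (7.02% and 10.9%). The members and the Mediator subunits lie below both lines, while every other list lies above 1 or both.

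Spread between livers was wider in the POMCMfn2KO group for most members. The SD over POMCMfn2KO arrays exceeded that over control arrays in 28 of 30 members (93.3%), against 80.0% of all genes tested, with medians of 0.15 and 0.05 log2 units over the members. It was 16.4 times the control SD for Esr1 (0.48 and 0.03) and 13.8 times for Ppargc1b (0.42 and 0.03), and the 2 exceptions were Rarg (0.05 and 0.09) and Ncoa1 (0.04 and 0.04). POMCMfn2KO 1 was the array farthest from the POMCMfn2KO median in 10 of 30 members and POMCMfn2KO 4 in 8, against 33.1% and 23.2% of all genes tested. POMCMfn2KO 4 was also the closest to the controls, with a mean absolute difference from the control mean of 0.18 over the members, against 0.22 to 0.29 for the other 4 POMCMfn2KO arrays.

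**Figure D5:**
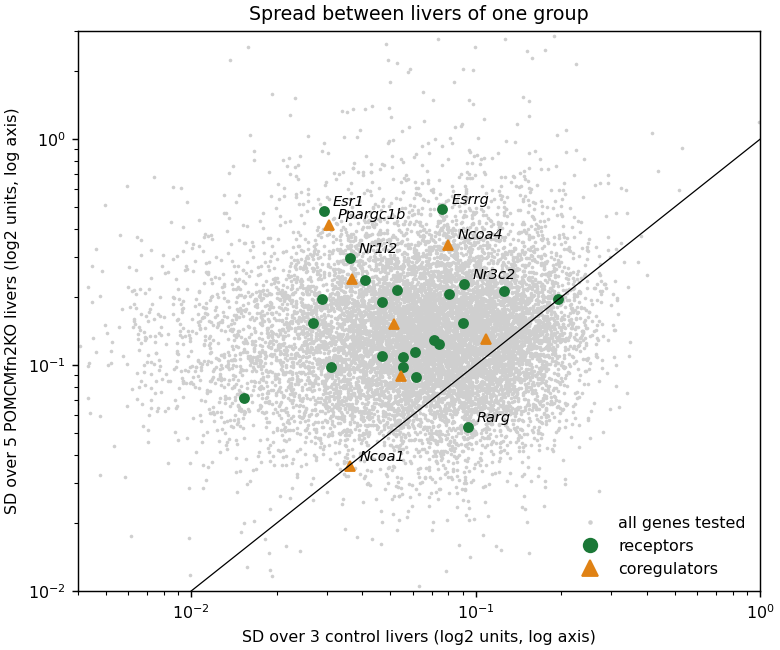
Standard deviation over 5 POMCMfn2KO arrays (vertical) against that over 3 control arrays (horizontal), both in log2 units on log axes, for receptors (circles), coregulators (triangles) and all genes tested (grey). All members but Rarg and Ncoa1 lie above the line of equal spread.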

How the data were processed

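Whole-liver RNA of 5 POMCMfn2KO and 3 control mice was measured on 1 array each. The authors deposited log2 expression levels per probe set; RMA and the affy package are named, without versions, per the submitters' processing notes. Per the labels' protocols, Trizol and then a column kit were used for RNA, and the target was biotinylated cRNA. RMA equalises the arrays' distributions, so array medians lay between 5.79 and 5.81, and a change shared by most genes would not show. Array values carry no read depth, and the number of arrays limits the precision. The p-values set the mean difference against the spread between these mice. They treat the mice as independent and both groups as equally spread. The labels do not say which mice share a litter or a day, so independence could not be checked.

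Of 45101 probe sets, 64 were controls, 34945 had 1 gene symbol in the platform annotation, 932 named several genes and 9160 named none. Each of 18193 genes was read from its brightest probe set on average, and genes averaging under 5.80 (the median over all probe sets but controls) were set aside as dim, leaving 11986. These were fitted with limma 3.58.1 in R 4.3.3 (POMCMfn2KO minus control, default variance model, 2-sided, Benjamini-Hochberg over all genes tested, threshold 0.05); intervals are 95% intervals of that fit, for 1 gene at a time. The fit was also run on simulated data with equal spread in both groups. In these arrays the POMCMfn2KO SD was above the control SD in 80.0% of genes tested. That run therefore does not check the fit under unequal spread. The labels share replicate numbers, but nothing says that they pair mice. They were used as a block only as an alternative.

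Members and lists were chosen with earlier results of these data known, and no set test was run. Named genes followed a rule: members that passed, the 3 receptors and 2 coregulators with the lowest p among the others, up to 4 genes with the lowest p of each list that passed, the first target of each list, and 2 markers of each cell type with the largest change. Other members with values for each liver, and Cyp2b10, were chosen after their values were seen. Besides those above, the lists held markers of hepatic stellate cells (1 of 16 tested rose and 1 fell; Hand2 0.40, Col3a1 -0.30, which did not pass), Kupffer cells (1 of 15 rose and 2 fell; 13 of 15 lay below 0, with a median of -0.21 and sums of 12923 to 20488 in POMCMfn2KO and 16659 to 20120 in control arrays; Cd163 1.46, Timd4 -0.69), cholangiocytes (none of 6 passed, and 0 at an unadjusted p under 0.05 in limma; Epcam -0.28, Muc1 -0.24; Krt7, Cftr and Cldn7 dim) and hepatocytes (1 of 15 rose and 2 fell; Glul -0.48, Tat 0.44, which did not pass). These counts moved with single arrays: no stellate marker fell without any control or POMCMfn2KO 2 or 3, none rose without control 2 or 3 or POMCMfn2KO 2, 4 or 5, 1 Kupffer marker fell without any control or POMCMfn2KO 2, 3 or 4 and 5 without POMCMfn2KO 5, none rose without control 2 or 3, and hepatocyte markers that rose numbered 0 without any control or POMCMfn2KO 3, 3 without POMCMfn2KO 1 and 2 without POMCMfn2KO 4, with 1 that fell without control 2 or 3. With all arrays, 12.5% of stellate, 20% of Kupffer and 20% of hepatocyte markers were called, against 18.0% of all genes tested. Hand2, the stellate marker that rose, gave -0.003 on another bright probe set, and averaging its probe sets ended its call. Alternatives used no filter or a stricter one, averaged probe sets, rescaled arrays, changed the variance model, or left arrays out. Matplotlib 3.10.9 under Python 3.11.15 drew the figures.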

Additional observations from a re-analysis of the deposited data

Results flagged for a closer look

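For 8 of the 99 genes checked, 1 of the 5 POMCMfn2KO arrays stood apart from the other 4. The gap was over 0.71 of the group's range (Dixon's 95% value). Chance gives about 1 in 20 for genes that were not selected, and 2 of the 34 members checked had such an array. Many of the other genes were chosen by a low p or a large change in these data, so that rate does not apply to them. The members among the 8 were Ncoa4, at 12.27 in POMCMfn2KO 1 against 11.42 to 11.64 in the other 4, and Ppargc1b, at 8.31 in POMCMfn2KO 4 against 9.02 to 9.31. POMCMfn2KO 4 was also apart for Pparg (7.37 against 6.71 to 6.82), Hdac3 (8.96 against 8.72 to 8.75) and Glul (13.15 against 12.85 to 12.94). POMCMfn2KO 2 was apart for Ncoa5 (7.21 against 7.24 in each other array) and Pklr (7.72 against 8.02 to 8.10), and POMCMfn2KO 5 for Crebbp (9.07 against 8.87 to 8.92).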

How the results depend on the processing

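Across 17 alternatives, the 30 tested members gave 500 values, of which 459 kept both the direction and the side of the threshold. Having 5 and 3 arrays limits the precision of each count. Over all genes, 640 passed without POMCMfn2KO 2 and 3 and between 820 and 2760 when single arrays were left out, against 2152. Receptors that rose numbered 2 with array weights by genotype, 0 with the replicate block, 0 without POMCMfn2KO 2 and 3 and 0 to 2 when single arrays were left out, against 1. Receptors that fell numbered 1 without the filter, 1 with the stricter filter, 1 after quantile normalization, 1 without POMCMfn2KO 2 and 3, 4 with array weights by genotype and 1 to 4 when single arrays were left out, against 2. Coregulators that rose numbered 1 with the stricter filter, 2 with array weights by genotype and 0 to 2 when single arrays were left out, against 0, and none fell in any alternative. The median change lay between -0.05 and 0.00 for receptors and between 0.10 and 0.20 for coregulators when single arrays were left out; with probe sets averaged it was 0.05 for receptors, the other sign, and 0.12 for coregulators. Same-numbered arrays did not deviate together (r = 0.04, 0.04 and -0.03 across genes, which are not independent), and the labels state no pairing; control 1 and 2, but not control 3, correlated best with their own number. With the replicate block, POMCMfn2KO 4 and 5 had no control of their number, so its changes rest on POMCMfn2KO 1 to 3 only. In that setting 1891 genes passed and, of the members, Esrrg (-0.93, limma adjusted p = 0.0163), Nr1i3 (-0.31, 0.0465) and Nr3c2 (-0.75, 0.0178), while Rxrb did not (0.33, 0.0599). Differences near 0 changed sign: with the block Nr1i2 gave -0.012 and Nr5a2 -0.00076; with probe sets averaged Nr2f2 gave 0.0042; Rarg gave -0.0011 with arrays centred and -0.023 without POMCMfn2KO 2 and 3. With single arrays left out, Nr1h3 lay between -0.051 and 0.0035, Nr2c2 between -0.0031 and 0.13, Nr4a2 between -0.071 and 0.0050, Rarg between -0.045 and 0.049, and Ncoa4 between -0.072 and 0.14. The cause of these moves was not tested.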
